A study of Mus musculus with 5 samples.

Results

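Partly methylated tiles in CpG-poor DNA were the subject. The autosomes were divided into tiles of 1 kb, and a tile was taken when it held 3 to 19 listed CpG positions, lay more than 5 tiles from any tile with 20 or more listed CpGs (called dense here), had at least 3 well-covered CpGs, and had a deposited methylation level of 30% to under 70% in K9M replicate 2. Of 748725 autosomal tiles with a listed CpG, 365469 held 3 to 19 and 304006 of those lay away from dense tiles. A total of 96152 had 3 or more CpGs that were well covered in all 5 libraries. These are called sparse tiles, and 6829 of them (7.10%) were partly methylated. The remaining sparse tiles were 6380 low tiles, under 30% in K9M replicate 2, and 82943 high tiles, at 70% or above. The level in K9M replicate 2 chose the tiles, so that library is described and kept out of the main tests, which use the other 4 libraries. It enters only alternative fits that are named as such, and its values lie in that range by the choice of tiles. K9M replicate 1 is of the same group, so the choice may hold its values near that range as well.

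The series profiled DNA methylation in mouse cells by reduced representation bisulfite sequencing, in which MspI fragments are converted with bisulfite and sequenced. There were 2 K36M libraries, 2 K9M libraries and 1 WT library. The K36M and K9M mice carry dominant negative H3.3, a variant of histone H3, altered at lysine 36 or lysine 9, and their drinking water held doxycycline at 2 mg/ml. The WT mice are labelled wildtype with no mention of doxycycline, so genotype and doxycycline cannot be told apart in any comparison with WT. The labels name the source as HSCs, hematopoietic stem cells, yet describe sorting from peripheral blood. Neither strain, age, the promoter of the transgene nor the number of animals behind a library is labelled, and methylation files hold no marker genes by which to check the cell type. Nothing says that replicates are separate animals, so a p-value here reflects only how far these libraries differ, possibly for technical reasons.

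In mammals most CpGs outside CpG islands are methylated on nearly all DNA copies, and unmethylated DNA is mostly found at CpG-dense promoters. Tiles between these states hold either CpGs that are methylated on only some DNA molecules or neighbouring CpGs of opposite state. DNMT3A and DNMT3B, the de novo DNA methyltransferases, bind methylated lysine 36 of histone H3, and methylated lysine 9 marks heterochromatin that is also rich in DNA methylation. Histones with methionine in place of either lysine interfere with the enzymes that methylate that position.

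Levels are given as a relative level, in percent of the library's plateau. The deposited fractions are on a different scale in K9M replicate 2: at 118259 CpGs at 98% or more there, the median deposited level was 53.2% and 55% in the K36M libraries, 56.8% in K9M replicate 1 and 54.3% in WT. Methylated counts were therefore divided by a second count (what is left of the total without the methylated count, or the total in K9M replicate 2), and the ratio by its median over the most methylated tiles. For a tile, both counts were first summed over its measured CpGs. A tile level is thus weighted by coverage, also where the CpGs of a tile are said to average a value. A relative level can pass 100%, and it does not show a change of the same proportion at all CpGs of a library. The libraries listed 3217831 to 3387812 autosomal CpGs, with total counts of 108651379 to 168836289 and a median total of 20 to 29 per CpG. In the partly methylated tiles, the median second count per CpG was 30.6 and 37.0 in K36M, 30.1 in K9M replicate 1 and 37.3 in WT.

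The partly methylated tiles were lower in both K36M libraries than in the other libraries. Their mean relative level was 50.1% and 49.7% in K36M replicates 1 and 2, 55.2% in K9M replicate 1 and 55.6% in WT. In K9M replicate 2, which chose them, it was 56.3%. K36M thus averaged 49.9% ± 0.305 (SD, n = 2). K36M minus WT was -5.70 points, a fall of 10.3% of the WT level. The 2 K36M libraries differed from each other by 0.431 points, and K9M replicate 1 minus WT was -0.432 points. The gap between K36M and the other libraries was therefore larger than the gap within either pair. The exact two-sided permutation test over libraries gave p = 0.333 for K36M against WT, the smallest that 2 libraries against 1 allow, so this design cannot reach 0.05. On the levels as deposited, K36M minus WT was -2.96 points. Those are not the same points, since CpGs at 98% or more in K9M replicate 2 had median deposited levels of 53.2% to 55% in these libraries. Both K36M libraries were below WT in 3653 tiles (53.5%; 38.8% of all measured tiles) and above it in 1311 (19.2%; 25.1% of all).

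**Figure D1:**
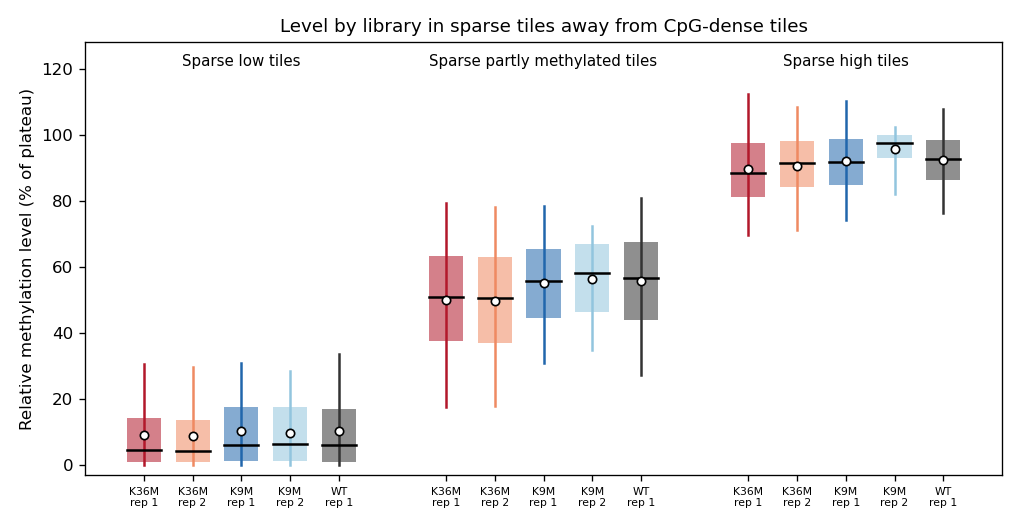
Relative methylation level (percent of plateau) in each library for sparse low tiles, sparse partly methylated tiles and sparse high tiles. Boxes span the quartiles over tiles, black lines are medians, white points means, and whiskers run from the 5th to the 95th percentile. The means of the partly methylated tiles are 50.1% and 49.7% in K36M and 55.2% to 56.3% in the other 3 libraries.

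The tiles spread widely around these means, and the lower end of the spread was reached mainly in K36M. In K36M replicates 1 and 2, 436 and 423 tiles were under 20%, against 25 in K9M replicate 1 and 116 in WT. K9M replicate 1 shares its group with the library that chose the tiles, so its narrow spread may come in part from that choice. At the upper end, 309 and 269 tiles in K36M, 272 in K9M replicate 1 and 405 in WT were over 80%. The 5th percentile was 17.7% and 17.9% in K36M, 30.9% in K9M replicate 1 and 27.4% in WT. Between 20% and 80% lay 89.1% and 89.9% of the tiles in K36M, 95.7% in K9M replicate 1 and 92.4% in WT. Most tiles that were intermediate in K9M replicate 2 were thus intermediate in each of the other libraries as well.

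Large differences ran almost entirely downward in K36M. K36M was at least 20 points below WT in 742 of the 6829 tiles (10.9%; 3.33% of all 152678 measured autosomal tiles) and at least 20 points above it in 67 (0.981%; 0.739% of all measured tiles). At 10 points the counts were 2094 below (30.7%; 14.2% of all) and 446 above (6.53%; 5.86% of all). At 40 points they were 86 below and 1 above, with 374 below and 28 above among all 152678 measured tiles. K9M replicate 1 set against WT was nearly even, with 361 tiles at least 20 points lower (5.29%; 2.46% of all measured tiles) and 324 at least 20 points higher (4.74%; 2.53% of all). The 5th and 95th percentiles of the difference were -27.7 and 11.2 points for K36M minus WT, and -20.3 and 19.7 points for K9M replicate 1 minus WT. The K36M values are means of 2 libraries and the K9M ones are of 1 library, and both differences share the WT library.

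**Figure D2:**
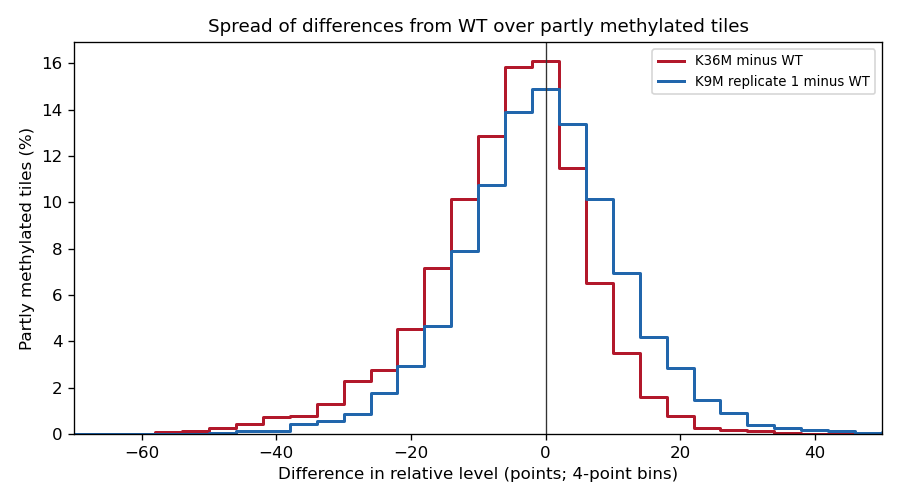
Share of the 6829 partly methylated tiles (percent, vertical axis) by difference in relative level (points, 4-point bins, horizontal axis), for K36M minus WT and for K9M replicate 1 minus WT. The K36M curve is shifted to the left, with 742 tiles at -20 points or lower and 67 at 20 points or higher, while the K9M curve has 361 and 324.

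In many tiles the groups did not overlap. Both K36M libraries were below both K9M replicate 1 and WT in 2560 tiles (37.5%; 23.6% of all measured tiles) and above both in 635 (9.30%; 14.1% of all). With a gap of more than 10 points the counts were 931 below (13.6%; 3.92% of all) and 54 above (0.791%; 0.789% of all). With a gap of more than 20 points, 316 were below (4.63%; 0.869% of all) and 6 above (0.0879%; 0.0655% of all). The share below was larger than over all measured tiles at every gap, and the share above was not larger at a gap of 0 and close to it at 10 points.

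The tiles that were low in one K36M library were also low in the other when each was set against a different library. The difference K36M replicate 1 minus WT and the difference K36M replicate 2 minus K9M replicate 1 use no library in common. Across the 6829 tiles they correlated with Pearson's r = 0.394, a description of tiles that share their 4 libraries. With the partners exchanged r was 0.352, and for K36M replicate 1 minus K36M replicate 2 against WT minus K9M replicate 1 it was 0.0522. In the 2200 tiles where K36M replicate 1 was at least 10 points below WT, K36M replicate 2 averaged -12.4 points against K9M replicate 1 and was below it in 76.6%. In all other tiles it averaged -2.21 points and was below in 57.6%.

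The K36M difference was larger in the partly methylated tiles than in the low or high tiles around them on the methylation scale. In low tiles K36M averaged 8.87% ± 0.204 (SD, n = 2) and WT 10.4%, a difference of -1.56 points. In high tiles K36M averaged 90.2% ± 0.793 (SD, n = 2) and WT 92.4%, a difference of -2.26 points. The difference in partly methylated tiles exceeded that in high tiles by -3.44 points (SD of the 2 K36M libraries 1.098) and that in low tiles by -4.14 points (SD 0.100). The exact two-sided permutation test gave p = 0.333 for both, again the lowest possible value. As a share of the WT level the order differed: the fall was 15% in low tiles, 10.3% in partly methylated tiles and 2.45% in high tiles.

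Ordered by the level in K9M replicate 2, the difference between K36M and WT was -0.150 points at 0 to 5%, reached -6.38 points at 50 to 55%, and was -1.70 points at 95 to 100%. The shrinking of the difference toward both ends is in part set by the measure, as said above. No step stood at the limits of the rule. Just inside the lower limit, at 30 to 32%, 192 tiles had a mean difference of -5.79 points, and just outside it, at 28 to 30%, 240 tiles had -4.79 points. Just inside the upper limit, at 68 to 70%, 626 tiles had -5.02 points, and just outside it, at 70 to 72%, 704 tiles had -5.35 points. K9M replicate 1 stayed between -1.31 and 0.456 points of WT in every 5-point bin. In the bin from 95 to 100% the 2 K36M libraries parted, at -2.70 and -0.705 points, while in the 65 to 70% bin they were at -6.01 and -5.97 points.

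**Figure D3:**
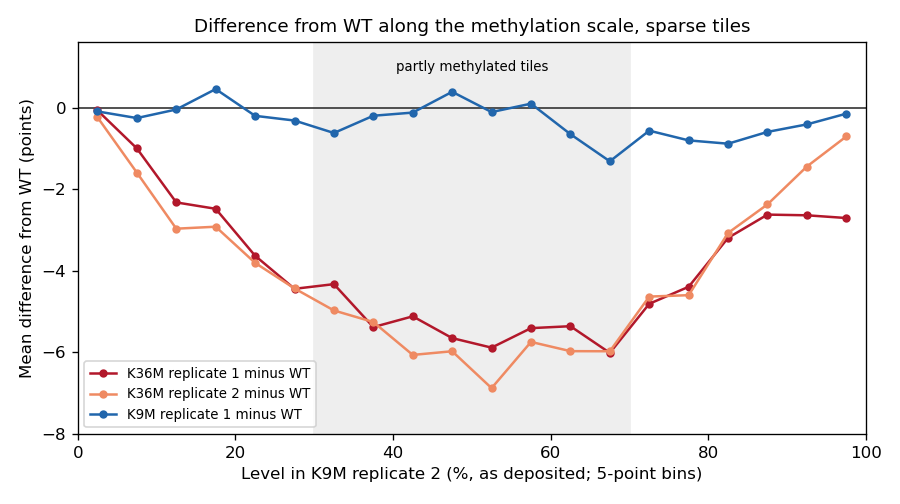
Mean difference from WT in relative level (points) for K36M replicates 1 and 2 and K9M replicate 1, over sparse tiles in 5-point bins of the level in K9M replicate 2 (percent, as deposited). The grey band holds the partly methylated tiles. The K36M means reach -6.38 points at 50 to 55% and K9M replicate 1 stays between -1.31 and 0.456 points.

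The difference was found on every autosome. On each of 19 of 19 chromosomes both K36M libraries had a lower mean than WT over the partly methylated tiles, with a mean difference between -6.85 points on chromosome 19 and -4.43 points on chromosome 3. K9M replicate 1 was below WT on 14 of 19, between -1.91 and 0.626 points. Partly methylated tiles made up 58.6 per 1000 sparse tiles on chromosome 16 and 86.6 per 1000 on chromosome 11, the extremes. The number of CpGs in a tile moved the difference little: it was -5.46 points in tiles with 3 to 5 listed CpGs, -6.13 with 6 to 9, -5.56 with 10 to 14 and -5.09 with 15 to 19. Coverage did so even less, with -5.95, -5.68, -5.63 and -5.55 points from the lowest to the highest quartile of second count per CpG. Without the 8 tiles covered more than 10 times as deeply as the median tile, the difference was -5.71 points.

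The distance from CpG-dense DNA, in contrast, went with the size of the difference. In the 976 tiles that were 6 to 10 tiles from the nearest dense tile, the mean level was 47.7% and 47.4% in K36M, 54.8% in K9M replicate 1 and 55.5% in WT. In the 2408 tiles more than 50 tiles away, it was 53.2% and 52.6% in K36M, 56.6% in K9M replicate 1 and 56.9% in WT. WT levels lay between 54.3% and 56.9% at the 4 distances, while those of K36M were lowest in the 2 classes closest to dense tiles. The difference between K36M and WT was -7.96 ± 0.258 points at 6 to 10 tiles, -6.58 ± 0.207 at 11 to 20, -6.11 ± 0.216 at 21 to 50 and -3.95 ± 0.456 beyond 50 (SD, n = 2). K9M replicate 1 stayed between -0.687 and -0.157 points of WT at these distances. The nearest class exceeded the farthest by -4.16 points in K36M replicate 1 and -3.88 points in K36M replicate 2, and by -0.415 points in K9M replicate 1. The exact two-sided permutation p for K36M against WT was 0.333, again the smallest possible. In sparse high tiles the same contrast was -1.28 ± 0.311 points (SD, n = 2). These distance classes were drawn up after values had been seen.

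**Figure D4:**
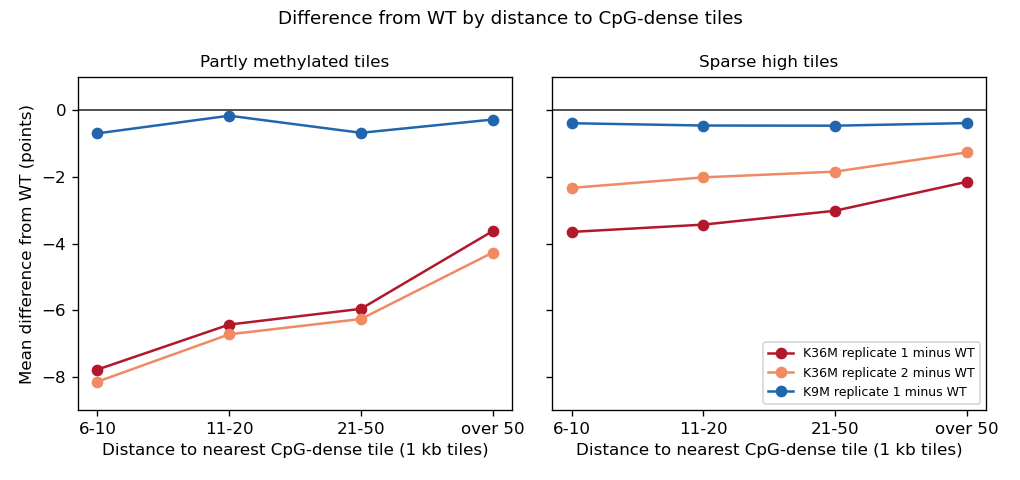
Mean difference from WT in relative level (points) by distance to the nearest CpG-dense tile (in 1 kb tiles), for partly methylated tiles on the left and sparse high tiles on the right. Lines are K36M replicates 1 and 2 and K9M replicate 1. In partly methylated tiles K36M is -7.96 points from WT at 6 to 10 tiles and -3.95 points beyond 50.

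The CpG content of the wider region went the same way. By quartile of listed CpGs in the surrounding megabase, the difference between K36M and WT was -3.40 points in the poorest, then -6.14, -6.38 and -6.90 points in the richest. The mean level in K36M was 55% and 54.3% in the poorest quartile, with 57.4% in K9M replicate 1 and 58.0% in WT. In the richest quartile it was 47.4% and 46.9% in K36M, 53.9% in K9M replicate 1 and 54.1% in WT. Distance still separated tiles on each side of the median content. Content also varied within each side, so distance and content cannot be fully told apart here. Below the median content, tiles 6 to 20 tiles from a dense tile were at -6.48 points and those farther away at -4.27. Above it the values were -7.50 and -5.93 points.

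Tiles beside a partly methylated tile were on average more methylated than it was, but less than the sparse high tiles. Measured tiles of other classes directly beside one (1608 tiles) had a mean level of 67.3% and 68.1% in K36M, 70.5% in K9M replicate 1 and 71.3% in WT, and tiles 2 away were at 81.8% in WT. These means leave out partly methylated tiles, and the rule bars dense tiles within 5 tiles. Over all sparse tiles of the other classes, WT averaged 92.4% in the 82943 high tiles and 10.4% in the 6380 low ones. Neighbours were thus not shown to be more methylated than such tiles elsewhere. The difference between K36M and WT in the adjoining tiles was -3.62 points. Of 1876 partly methylated tiles with a measured adjoining tile, 420 (22.4%) adjoined another partly methylated one, and the longest run was 3 tiles. Of the measured adjoining tiles 20.7% were partly methylated, against 7.10% of all sparse tiles. Both shares rest on the level in K9M replicate 2, which chose the tiles. The assay limits this view, since the measured CpGs of a tile spanned a median of 162 bp and most tiles had no measured neighbour.

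At single CpGs, partial methylation was in part a property of the CpG and in part a mixture of CpGs. The tiles held 35217 measured CpGs. In WT 62.1% of them lay at 20 to 80%, 13.8% under 20% and 24.1% over 80%. The Wilson 95% interval of the first share, 61.6 to 62.6%, takes CpGs as independent. They are not, so it is too narrow. CpGs under 20% made up 19.9% and 19.8% in K36M, against 12.4% in K9M replicate 1, and those over 80% made up 18.9% and 17.8% in K36M, against 20.5% in K9M replicate 1. In 1518 tiles (22.2%) every measured CpG lay at 20 to 80% in WT. In 1499 tiles (22.0%) at least 1 CpG was under 20% and another over 80%.

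The median SD between the CpGs of a tile was 22.1 points in WT and 22.2 and 21.9 points in K36M, while the same CpG in the 2 K36M libraries had a median SD of 5.79 points. CpGs of a tile therefore differed by more than the libraries did. Neighbouring CpGs resembled each other over short distances. The mean absolute difference between adjoining measured CpGs in WT was 14.4 points at 2 to 9 bp, 17.7 at 10 to 29 bp, 23.1 at 30 to 99 bp, 33.1 at 100 to 299 bp and 49.8 at 300 to 999 bp. CpGs close together often lie on the same sequencing reads. Tiles were kept for an intermediate level, so a high CpG goes with lower ones elsewhere in its tile. The rise with distance is thus in part set by the choice of tiles. The correlation between adjoining CpGs in WT was 0.711 at 2 to 9 bp, 0.0968 at 100 to 299 bp and -0.321 at 300 to 999 bp.

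The K36M difference was largest at CpGs that were themselves intermediate. Grouped by their level in K9M replicate 2, CpGs of these tiles differed from WT by -2.35 points under 20%, -5.34 at 20 to 40%, -6.53 at 40 to 60%, -6.88 at 60 to 80% and -4.46 at 80% or more. Levels at 60 to 80% were 60.9% and 60.8% in K36M, 67.1% in K9M replicate 1 and 67.7% in WT. The difference was thus present in all 5 groups, and smallest in CpGs of low level, which cannot fall by many points.

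Tile by tile, few differences passed a test across the whole table. A quasi-binomial logistic model was fitted to 152678 tiles with 4 libraries and 1 residual degree of freedom, from the K36M pair. Called tiles had a Benjamini-Hochberg adjusted p under 0.05 and differed by 10 points or more. In K36M against WT, 71 partly methylated tiles were called lower (1.04%; 0.153% of all measured tiles) and 0 higher (0.00131% of all). At an unadjusted p under 0.05, 989 were lower (14.5%; 3.42% of all) and 92 higher (1.35%; 0.985% of all). Low tiles had nearly the same share lower at that limit, 919 (14.4%), with 234 higher (3.67%). In the main fit 43 low tiles were called lower (0.674%) and 0 higher. limma called 261 lower (3.82%; 0.558% of all) and 1 higher (0.0146%; 0.0144% of all). Among low tiles it called 267 lower (4.18%) and 15 higher (0.235%). edgeR called 552 lower (8.08%; 1.2% of all) and 38 higher (0.556%; 0.0648% of all). Among low tiles it called 297 lower (4.66%) and 30 higher (0.470%). The count depended on having both K36M libraries: without either of them, 1 library is compared with 1. Without K36M replicate 1, 0 were called in either direction (lower: 0.00131% of all), and without K36M replicate 2 also 0 (lower: 0% of all). Those 2 fits take the spread from the K9M pair, replicate 2 included.

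The 71 tiles lay on all 19 autosomes, with the most, 10, on chromosome 11. Their mean level was 11% and 10.8% in K36M, 50.0% in K9M replicate 1, 50.2% in K9M replicate 2 and 47.3% in WT. The differences from WT ran from -83.7 to -15.3 points, with a median of -34.7. In all 71 both K36M libraries were also below K9M replicate 1. Among their 453 CpGs, 440 (97.1%) were lower in both K36M libraries than in WT, and 430 were lower than in K9M replicate 1 as well. The tiles were called on the summed counts of these same CpGs, so this is a description of the called tiles.

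The 10 largest falls among called tiles show what this looks like. The files give mm9 positions with no gene names, and no annotation of that build was at hand, so genes and features at these positions are not given. At chr1:74065001-74066000 the 3 measured CpGs averaged 5.71% and 0% in K36M, 57.5% in K9M replicate 1, 58.7% in K9M replicate 2 and 86.5% in WT. The 0% rests on a second count of 50, which allows a level of up to 4.77%. This was the largest difference among the 71 tiles, at -83.7 points with an adjusted p of 0.0384 (quasi-binomial F test, Benjamini-Hochberg).

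At chr1:92919001-92920000, 3 CpGs averaged 2.32% and 2.98% in K36M, 52.0% in K9M replicate 1, 62.9% in K9M replicate 2 and 66.6% in WT (adjusted p = 0.0356, same test). At chr11:62449001-62450000 the levels were 1.38% and 2.85% in K36M, 64.9% and 57.0% in K9M and 58.5% in WT (adjusted p = 0.0157). At chr14:33962001-33963000 they were 3.66% and 7.94% in K36M, 73.4% and 48.5% in K9M and 54.4% in WT (adjusted p = 0.0364). In each of these the K36M libraries were close to unmethylated. K9M replicate 2 lies at 30% to under 70% by the choice of tiles.

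The loss was not the same at each CpG of a tile. At chr4:134687001-134688000, 6 CpGs averaged 13.3% and 18.8% in K36M, 65.0% and 50.2% in K9M and 77.8% in WT (adjusted p = 0.0159, quasi-binomial F test). The CpG at position 134687054 was still at 57.3% and 61.0% in K36M, against 85.3% in WT. The CpG at position 134687108, the next one measured, was at 9.37% and 10.9% in K36M, against 82.8% in WT. The last, at position 134687282, was at 4.84% and 3.45% in K36M, against 70.9% in WT. All 6 CpGs were lower in both K36M libraries than in WT, by amounts that differed along the tile.

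The other 5 of the 10 tiles were at chr5:76139001-76140000, chr2:158600001-158601000, chr6:31050001-31051000, chr12:103882001-103883000 and chr9:98398001-98399000. The tile on chromosome 5 had 13.6% and 13.7% in K36M, 72.8% and 72.4% in K9M and 69.9% in WT. The tile on chromosome 6 had 9.32% and 17.3% in K36M, 57.9% and 64.8% in K9M and 63.2% in WT. The tile on chromosome 2 had 9.22% and 5.98% in K36M, 44.4% and 54.1% in K9M and 60.6% in WT. The remaining tiles, on chromosomes 9 and 12, had 7.79% and 8.05%, and 6.65% and 8.22%, in K36M, against 56.9% and 56.6% in WT. In all 10 tiles the K36M libraries were at 18.8% or below. These tiles were picked for the size of the fall, so the lack of overlap with WT is part of their choice.

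**Figure D5:**
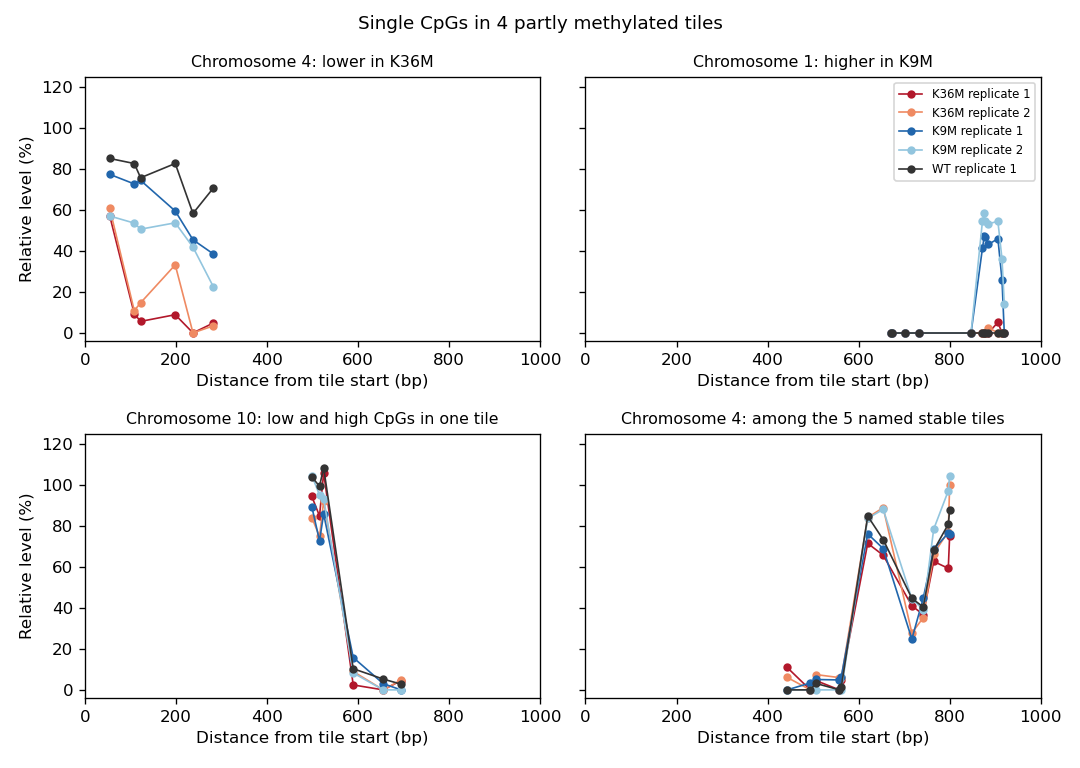
Relative level (percent, vertical axis) of single measured CpGs by distance from the tile start (bp, horizontal axis) in 4 tiles, 1 line per library. Top left, the chromosome 4 tile with a fall in K36M, where the first CpG is at 57.3% and 61.0% in K36M. Top right, the chromosome 1 tile with higher levels in K9M, where only CpGs from 872 bp on are methylated. Bottom left, the chromosome 10 tile with both low and high CpGs. Bottom right, the stable chromosome 4 tile, with levels of 11% or lower up to 562 bp and higher ones after it.

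Against K9M replicate 1, 152 partly methylated tiles were called lower in K36M (2.23%; 0.335% of all measured tiles) and 2 higher (0.0293%; 0.00917% of all). At an unadjusted p under 0.05, 1085 were lower (15.9%; 3.95% of all) and 173 higher (2.53%; 1.18% of all). Low tiles had nearly the same share lower at that limit, 1011 (15.8%), with 330 higher (5.17%). Without K36M replicate 1 the counts were 8 lower (0.117%; 0.0367% of all) and 0 higher (0.00131% of all). Without K36M replicate 2 they were 0 lower (0.00655% of all) and 0 higher (0% of all). Of the 152 tiles, 61 were also called against WT, in comparisons that share the K36M libraries. Their mean level was 11.8% and 11.9% in K36M, 52.4% and 51.2% in K9M and 37.9% in WT. The tiles were called for low K36M beside high K9M replicate 1, so these means are a description.

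Some of these tiles were low in WT as well. At chr18:54773001-54774000, 5 CpGs averaged 1.84% and 5.33% in K36M, 67.5% and 53.8% in K9M and 17.4% in WT (adjusted p = 0.00822 for K36M against K9M replicate 1). At chr6:82703001-82704000 the levels were 19.1% and 15.4% in K36M, 77.5% and 51.9% in K9M and 29.3% in WT (adjusted p = 0.0207). At chr10:13108001-13109000 they were 13.7% and 17.6% in K36M, 83.1% and 56.0% in K9M and 28.5% in WT (adjusted p = 0.0377). In these 3 tiles K36M and WT were at 29.3% or below, so they are among the partly methylated tiles only through the level in K9M replicate 2, and its level beside that of K9M replicate 1 is no independent support.

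At chr17:48025001-48026000 the levels were 17.7% and 11.1% in K36M, 82.6% and 71.8% in K9M and 69.3% in WT (adjusted p = 0.0244). The tile at chr15:84587001-84588000 held 15 measured CpGs and had 45.7% and 42.5% in K36M, 104% and 71.6% in K9M and 74.5% in WT (adjusted p = 0.0108). There K9M replicate 1 was higher than all other libraries, K9M replicate 2 included.

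The 2 tiles called higher in K36M than in K9M replicate 1 were both on chromosome 15. At chr15:99693001-99694000 the level was 79.8% and 68.2% in K36M, 24.4% and 48.7% in K9M and 52.7% in WT (adjusted p = 0.0438). At chr15:96423001-96424000 it was 63.6% and 67.6% in K36M, 28.5% and 41.9% in K9M and 62.6% in WT (adjusted p = 0.0295). In the second tile the K36M values were close to that of WT. Both tiles were called for low K9M replicate 1, and K9M replicate 2 is held under 70% by the choice of tiles.

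K9M replicate 1 against WT gave 0 partly methylated tiles called lower (0.00393% of all measured tiles) and 1 called higher (0.0146%; 0.00589% of all). At an unadjusted p under 0.05, 236 were lower (3.46%; 0.99% of all) and 290 higher (4.25%; 1.25% of all). limma called 5 lower (0.0732%; 0.0458% of all) and 51 higher (0.747%; 0.128% of all), and edgeR 37 lower (0.542%; 0.118% of all) and 90 higher (1.32%; 0.18% of all). The 1 tile was no longer called without K36M replicate 1 (0.000655% of all called higher) or without K36M replicate 2 (0% of all). The mean difference over all partly methylated tiles, -0.432 points, had no settled direction: it was 2.55 points on the levels as deposited.

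The 1 tile called higher was at chr1:172974001-172975000, with 12 measured CpGs. Its level was 29.9% in K9M replicate 1 and 41.0% in K9M replicate 2, 0.374% and 0.214% in K36M, and 0% in WT (adjusted p = 0.0303 for K9M replicate 1 against WT). The WT value is a methylated count of 0 on a second count of 418, which allows a level of up to 0.581%. With K36M and WT near 0, the tile is among the partly methylated ones only because K9M replicate 2 is, so that library is no independent support for the difference. The methylation in K9M was not spread over the tile. The 5 CpGs up to position 172974847 were at 0% in all 5 libraries. The next 5, from position 172974872 to 172974906, were at 41.3% to 47.2% in K9M replicate 1 and 53.4% to 58.7% in K9M replicate 2, while WT was at 0%. At positions 172974915 and 172974920 the level was 26.0% and 0% in K9M replicate 1, and 36.1% and 14.3% in K9M replicate 2. The methylated stretch began between the same neighbouring measured CpGs in both K9M libraries, and its far end differed at the last CpG. Coverage changed there as well. From position 172974847 to 172974872 the second count went from 15 to 37 in K9M replicate 1 and from 14 to 50 in K9M replicate 2. In K36M it went from 16 to 16 and from 30 to 29, and in WT from 35 to 34. How the border relates to this change in coverage was not tested.

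Other partly methylated tiles had nearly the same level in all 4 libraries. Among tiles with 8 or more measured CpGs, the tile at chr2:131778001-131779000 had the smallest range, 1.03 points, with 29% and 30.02% in K36M, 29% in K9M replicate 1 and 29.1% in WT. The tile at chr4:9024001-9025000 had 36.2% and 36.3% in K36M, 36.8% in K9M replicate 1 and 35.7% in WT. The tile at chr9:115061001-115062000 had 41.7% and 42.6% in K36M, 41.4% in K9M replicate 1 and 42.8% in WT, at a second count of 541 to 750 per CpG in the 5 libraries, far above the median. The tiles at chr2:61705001-61706000 and chr18:35900001-35901000 had ranges of 1.37 and 1.56 points. The level of the former rests largely on positions 61705526 and 61705548, with second counts of 1199 and 1178 in WT. Those CpGs were at 5.41% and 81.8% in WT. Its other CpGs had second counts of 21 to 87 and levels of 75.4% to 99.6% in WT. These 5 tiles were chosen for their small range, which is therefore no finding.

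Stable tile levels were built in different ways. In the tile at chr18:35900001-35901000 the 5 CpGs up to position 35900255 were at 0% to 2.74% in all 5 libraries. The CpGs at positions 35900847 and 35900875 were at 91.3% to 102% and 90.5% to 100.1% across the libraries. Its level of 57.7% in WT thus joins an unmethylated and a methylated stretch, weighted by coverage. The second count in WT was 24 at position 35900255 and 108 at position 35900847. The tile at chr10:120719001-120720000 was alike: the CpGs at positions 120719498 and 120719515 were at 94.6% and 85.0% in K36M replicate 1 and at 104% and 99.5% in WT, and those at positions 120719655 and 120719694 were at 0% and 4.57% in K36M replicate 1 and at 5.28% and 2.79% in WT. The border lay between the neighbouring measured CpGs at positions 120719524 and 120719589, which were at 109% and 10.3% in WT. The other tiles chosen for a large SD between their CpGs in WT were at chr6:87547001-87548000, with 53.6% and 52.5% in K36M, 45.4% in K9M replicate 1 and 53.7% in WT, and at chr1:157131001-157132000, with 41.7% and 37.7% in K36M, 49.5% in K9M replicate 1 and 42.8% in WT.

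The tile at chr11:75413001-75414000 was the opposite case. Its 6 CpGs lay between 56.4% and 62.7% in WT, with a tile level of 57.6% in WT, 52.0% and 60.3% in K36M and 50.6% in K9M replicate 1. In the tile at chr15:79912001-79913000 the 6 CpGs lay between 45.6% and 52.8% in WT. Its level was 20.6% and 34.2% in K36M, 21.8% in K9M replicate 1 and 49.5% in WT, and it was not called in any comparison of the main fit. Over the alternatives its lowest adjusted p for K36M against WT was 0.00167 and its highest 1. The tile at chr11:101198001-101199000, also chosen for uniform CpGs in WT, had 59.1% and 53.1% in K36M, 66.2% in K9M replicate 1 and 51% in WT. In the chromosome 15 tile WT was the highest of the libraries, and the 2 K36M libraries differed by more than K36M replicate 1 and K9M replicate 1 did.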

How the data were processed

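Per the labels' protocols, DNA from cell pellets was digested with MspI, 10 to 50 ng of it entered each library, and 12 PCR cycles followed bisulfite conversion. cutadapt, BSMAP and mm9 are named in the submitters' processing notes. Versions, settings and any deduplication were not given in the sources used here. The deposited files give, per CpG, the level as a fraction, made by the authors in a way not given in these sources, and a total count. The methylated count was the rounded product of both. Well-covered CpGs had second counts of 10 or more in all 5 libraries, and tiles had 3 or more of them. For the plateau, the ratio was taken at its median in the top 20% of tiles by mean rank (1.22 and 1.26 in K36M, 1.37 and 0.954 in K9M, 1.23 in WT). This reading of the scale was inferred from the values.

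Per tile, a quasi-binomial logistic model was fitted to K36M, K9M replicate 1 and WT with the log plateau as offset. squeezeVar of limma (version 3.58.1, R 4.3.3) shrank the dispersion toward a trend on log mean count, with a floor of 1; 25.5% of tiles lay above that floor. F tests were adjusted with Benjamini-Hochberg over 152678 tiles. A lone library is assumed to vary like the K36M pair, and CpGs on one read are not independent. The limit for a methylated count of 0 is 3 counts and covers counting error only. The interval for the share of CpGs takes CpGs as independent. limma on relative levels and edgeR 4.0.16 were alternatives. The fit was also run on simulated counts drawn from a model close to the fitted one. That run cannot test the reading of the second count.

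Named tiles were the 10 largest falls and rises among called tiles in K36M against WT, 5 each against K9M replicate 1, 3 each in K9M replicate 1 against WT, the 5 most stable, and the 3 most uniform and 3 most mixed within. Tiles over 130% in any library were not named. The tiles, their rule and these lists were chosen with earlier results of these data known. Same-numbered replicates share only a number. Coordinates are mm9, counted from 1.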

Additional observations from a re-analysis of the deposited data

How the results depend on the processing

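The mean differences that involve K36M kept their sign under all alternatives run. Over them, K36M minus WT ranged from -6.03 to -2.96 points, and K36M minus K9M replicate 1 from -5.90 to -3.80. The excess ran from -4.22 to -2.27 over high tiles and from -4.46 to -1.59 over low tiles. Near minus far tiles ran from -4.30 to -2.12. K9M replicate 1 minus WT became 2.55 points on deposited levels and 0.057 with tiles of 40 to 60% in K9M replicate 2. Deposited levels, which gave the 2.55 and the -2.96 points, are on a smaller scale that differs by library. The share of CpGs at 20 to 80% in WT was 66.3% at a coverage minimum of 20, 60.7% with a plateau taken from 40% of tiles and 66.6% with the narrower tiles. The limits of 40 to 60% left 3065 tiles, and the other rules gave 5853 to 6926.

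Counts of called tiles depended strongly on the setting; the cause was not tested. In the order K36M against WT (71 lower, 0 higher), K36M against K9M replicate 1 (152, 2) and K9M replicate 1 against WT (0, 1), they were as follows, with counts over all measured tiles in brackets (233 and 2, 511 and 14, 6 and 9 in the main fit). Leaving tiles of zero dispersion out of the moderation, chosen after seeing the data, gave 595 and 42, 724 and 76, 59 and 108 (2029 and 123, 2579 and 286, 259 and 352). The fits with all 5 libraries hold K9M replicate 2, which chose the tiles, and compare with the K9M pair in place of replicate 1, so they support nothing about K9M. They gave 206 and 10, 546 and 20, 2 and 20 (726 and 22, 1870 and 107, 42 and 77). With the replicate block and all 5 libraries, all 6 counts were 0, over all tiles as well; same-numbered samples deviated together with r = 0.0773 over all tiles. A coverage minimum of 5 gave 0 and 0, 58 and 0, 0 and 0 (14 and 0, 213 and 3, 0 and 0 of 184414). One of 20 tested 3973 of the 6829 tiles and gave 129 and 4, 215 and 4, 0 and 1 (449 and 10, 752 and 40, 9 and 20 of 104337). A plateau taken from 40% of tiles gave 6 and 0, 78 and 0, 0 and 0 (38 and 0, 266 and 4, 3 and 1). limma gave 261 and 1, 464 and 1, 5 and 51 (852 and 22, 1495 and 58, 70 and 196). edgeR gave 552 and 38, 698 and 62, 37 and 90 (1828 and 99, 2430 and 225, 180 and 275). Deposited levels gave 149 and 5, 359 and 3, 0 and 5 (483 and 14, 1328 and 31, 12 and 35). Leaving out 1 library gave 0 to 71 lower for K36M against WT, 0 to 146 lower and 0 to 2 higher for K36M against K9M replicate 1, and 0 higher for K9M replicate 1 against WT. All 18 named called tiles were still called with edgeR and with deposited levels, 16 with limma, 5 with the other plateau, 2 at a coverage minimum of 5, and 0 with the replicate block, without K36M replicate 1 or without K36M replicate 2.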

Other observations

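The X chromosome was left out of the rule. With the same rule, 101 of its 2614 sparse tiles (3.86%) were partly methylated. Their mean relative level was 58.2% and 57.8% in K36M, 61.0% in K9M replicate 1, 59.6% in K9M replicate 2 and 61.5% in WT. K36M minus WT was -3.52 ± 0.309 points (SD, n = 2) there, and K9M replicate 1 minus WT was -0.491 points. The 2355 high tiles of the X chromosome had 91.5% and 92.7% in K36M, 91.8% in K9M replicate 1 and 92.6% in WT, so the K36M libraries lay on either side of WT. The autosomal and X values were not tested against each other.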
